A study of Mus musculus with 9 samples.

Results

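Transcripts of the MHC class I pathway and of the immunoproteasome were followed through 9 RNA-seq libraries of mouse ear dermis. The set held 10 genes of the 52550 in the count table, taken by their symbols. They were the class I heavy chains H2-K1 and H2-D1, their light chain B2m, the peptide transporter subunits Tap1 and Tap2, tapasin (Tapbp), the inducible proteasome subunits Psmb8, Psmb9 and Psmb10, and the class I transactivator Nlrc5. All 10 were among the 22430 genes that passed the filter on low counts. All animals were labelled C57BL/6 (C57BL/6J in the methods), of wild-type genotype and 8 weeks old. The 3 libraries named VAS+H2O came from mice with vaseline on the ears for 5 days and water by gavage for 10 days. The 3 libraries named IMQ+H2O came from mice with imiquimod, a TLR7 agonist applied as a cream, for 5 days and the same water gavage. The 3 libraries named IMQ+XYF came from mice with imiquimod for 5 days and a decoction named Xiao-Yin-Fang (XYF), prepared from Isatis tinctoria, Scutellaria baicalensis, Salvia miltiorrhiza, Sophora flavescens and Rheum officinale, at 23.3 mg/g in 200 µl by gavage for 10 days. Gavage started before the topical treatment, and no group received XYF without imiquimod. Imiquimod-treated mouse skin is a short-lived model of psoriasis-like dermatitis. The methods describe male mice and dermal sheets from a pair of mice, without saying whether that holds for each library, so that the p-values measure the spread between these libraries, which may in part be technical.

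MHC class I molecules show peptides from inside the cell to CD8 T cells and are read by NK cells. The proteasome cuts proteins into peptides, TAP carries these into the endoplasmic reticulum, tapasin and its partners load them onto a heavy chain paired with beta-2 microglobulin, and the finished complex moves to the surface. Interferons raise most genes of this pathway in skin cells, and the inducible subunits then take the places of their constitutive partners in newly built proteasomes, giving the immunoproteasome.

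The promoters of the 3 surface chains and of Tap1 are shown first, a choice made with the results below known. They are RefSeq windows of GRCm38.p6, from 250 bases before to 50 bases after the annotated start, written 5′ to 3′ on the strand of the gene. RefSeq windows were found for 8 of the 10 genes, with none listed for Tap2 or Nlrc5. H2-K1 had 2 windows, and the first listed is used. Capitals mark matches on either strand to the ISRE-like forms GAANNGAAA and GAAANNGAA, the NF-kB-like GGGATTCCC, the CRE-like TGACG of the X2 element and the CCAAT box. All 8 windows were searched for these and for the GAS-like TTCNNNGAA. These motif forms were written down with class I promoters in view, so the matches describe the sequences and test nothing.
H2-K1 (chr17:34000298-34000597, minus strand): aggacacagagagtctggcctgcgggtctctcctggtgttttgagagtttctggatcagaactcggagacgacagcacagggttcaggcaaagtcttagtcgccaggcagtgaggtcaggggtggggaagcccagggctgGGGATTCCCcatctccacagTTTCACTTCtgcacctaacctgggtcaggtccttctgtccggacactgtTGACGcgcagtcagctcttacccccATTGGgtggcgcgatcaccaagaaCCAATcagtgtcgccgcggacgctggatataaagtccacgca
H2-D1 (chr17:35262844-35263143, plus strand): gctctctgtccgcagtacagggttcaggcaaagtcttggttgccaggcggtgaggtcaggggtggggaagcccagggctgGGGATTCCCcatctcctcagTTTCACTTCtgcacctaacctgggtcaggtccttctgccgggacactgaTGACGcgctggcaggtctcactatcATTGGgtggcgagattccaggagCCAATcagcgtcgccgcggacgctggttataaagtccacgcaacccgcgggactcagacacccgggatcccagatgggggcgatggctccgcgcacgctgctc
B2m (chr2:122147437-122147736, plus strand): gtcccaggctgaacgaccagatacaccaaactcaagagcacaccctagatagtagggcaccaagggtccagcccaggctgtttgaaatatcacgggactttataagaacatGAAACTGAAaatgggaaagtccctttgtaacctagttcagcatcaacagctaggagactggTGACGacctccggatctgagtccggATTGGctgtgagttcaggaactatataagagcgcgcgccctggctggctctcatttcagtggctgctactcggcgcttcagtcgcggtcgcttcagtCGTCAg
Tap1 (chr17:34187306-34187605, plus strand): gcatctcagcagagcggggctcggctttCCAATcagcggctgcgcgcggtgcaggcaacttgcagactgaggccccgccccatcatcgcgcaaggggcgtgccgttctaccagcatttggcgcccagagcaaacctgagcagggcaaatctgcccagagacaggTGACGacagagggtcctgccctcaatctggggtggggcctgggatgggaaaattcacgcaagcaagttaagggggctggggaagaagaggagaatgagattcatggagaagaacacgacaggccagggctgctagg

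Of 27025 promoter windows of the same length, 14.9% held either ISRE-like form, 0.37% held GGGATTCCC, 21% held TGACG, 37.9% held CCAAT and 8.47% held TTCNNNGAA. The H2-K1 and H2-D1 windows carried the same series in the same order, GGGATTCCC, then the ISRE-like form, then TGACG, then CCAAT on the minus and on the plus strand. In B2m the ISRE-like form was GAAACTGAA, at 139 bases before the start, followed by TGACG at 78 and a CCAAT box on the minus strand at 53 bases before it. Neither ISRE-like form nor GGGATTCCC was in the windows of Tap1, Tapbp, Psmb8, Psmb9 or Psmb10. The Tap1 window had CCAAT and TGACG, as had that of Psmb9. The part of these motifs in the levels was not tested. In the RefSeq table, Tap1 and Psmb9 are transcribed away from each other from starts 226 bases apart, and their windows share 275 bases. Psmb8 held the GAS-like form, Tapbp held only CCAAT, and none of these letters was in the Psmb10 window.

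On GRCm38, 7 of the 10 genes lie in the MHC on chromosome 17. Tapbp runs from 33915899 to 33929292 and H2-K1 from 33996017 to 34000347, and H2-D1 lies at 35262730 to 35267499. Between them sits the block of Psmb9 (34181987 to 34187764), Tap1 (34187553 to 34197225), Psmb8 (34197721 to 34201454) and Tap2 (34203527 to 34216321). B2m lies on chromosome 2 (122147686 to 122153083), and Nlrc5 (94434356 to 94527272) and Psmb10 (105935735 to 105938444) on chromosome 8. The table gives 1 count for each gene as a whole, and the handling of reads with several alignments and of strand was not given in the sources used here. This matters in 2 ways for these genes. Of all 50-base stretches of the annotated exons, 14.3% in H2-D1 and 8.79% in H2-K1 also occur in other genes, with other class I genes at the top, against 0% in B2m, Psmb10 and Nlrc5. Of 100-base stretches, 4.64% in H2-D1 and 0% in H2-K1 do. At 50 bases the shares were 21% in Tapbp, 12.6% in Tap2, 12.5% in Psmb9, 6.47% in Tap1 and 5.83% in Psmb8, with genes that overlap them at the top. In the GENCODE models, whose Psmb9 reaches past the RefSeq start, the exons of Psmb9 and Tap1 overlap by 212 bases on opposite strands. This is 15.7% of the Psmb9 and 7.18% of the Tap1 transcript. Genes typed as antisense cover 23.5% of Tapbp, 11.4% of Psmb8 and 4.79% of Tap2. A long non-coding RNA gene on the opposite strand covers 15% of Tap2. A share of those reads may belong to the overlapping gene.

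Total counts ran from 28756305 to 79836881 per library, and the 10 genes together took 0.163% to 0.397% of them. The lowest raw count of any of the 10 genes was 359, for Psmb9 in IMQ+H2O replicate 1. For Psmb9 in the imiquimod groups, counting error was not small beside the spread between libraries. Levels are given as CPM, counts scaled to the size of each library after TMM, a factor that corrects for composition. The dermal label was checked against marker lists of 10 cell types. Fibroblast markers such as Col1a1 and Dcn summed to 10367 to 25353 CPM, while keratinocyte markers summed to 1974 to 13880 and cartilage markers to 231 to 1438 CPM with Matn1 at 0 counts in all 9 libraries. Fibroblast sums exceeded keratinocyte sums in 8 of 9 libraries, the exception being IMQ+XYF replicate 1 with 11198 against 13880 CPM.

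**Figure D1:**
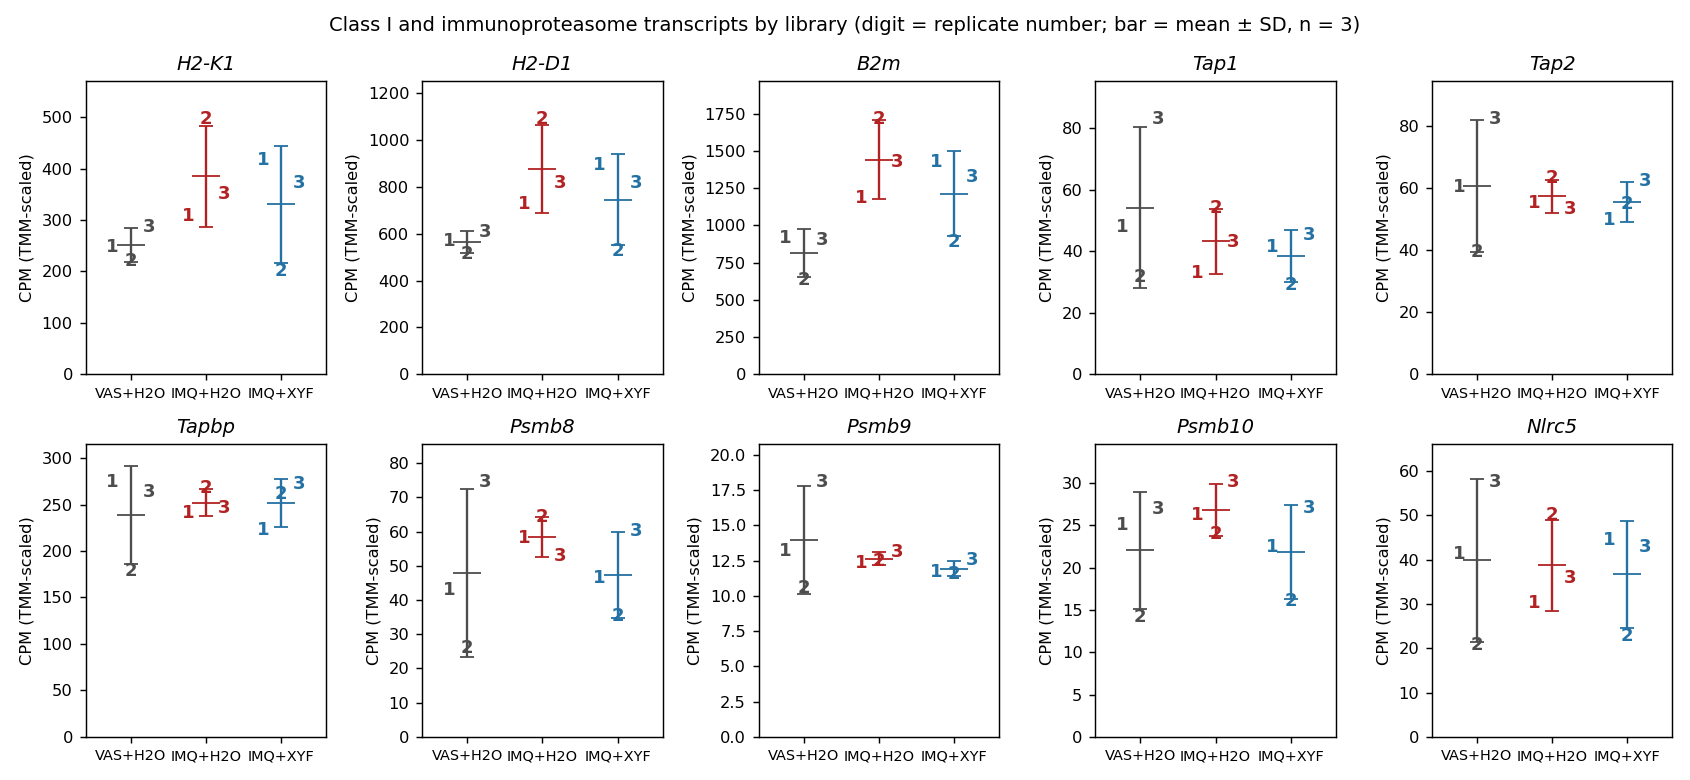
Level of each of the 10 genes in every library, in TMM-scaled CPM on linear axes from 0; digits are replicate numbers, and bars give the mean ± SD (n = 3). B2m, H2-D1 and H2-K1 are higher in each IMQ+H2O library than in any VAS+H2O library, while the other 7 genes overlap between all groups. Between IMQ+H2O and VAS+H2O, 31.5% of all tested genes did not overlap.

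Per kilobase of transcript, B2m led in all 3 groups and the order below it was nearly the same. In VAS+H2O, B2m stood at 947 ± 187 CPM per kb, H2-D1 at 268 ± 22.2, H2-K1 at 155 ± 20.4 and Tapbp at 82.4 ± 18.2 (SD, n = 3), and these 4 were separated from each other by more than their SDs. Then came Psmb8 at 29.4 ± 15.1, Tap1 at 18.3 ± 8.89, Tap2 at 17.7 ± 6.22, Psmb10 at 16.8 ± 5.29, Psmb9 at 10.3 ± 2.83 and Nlrc5 at 5.27 ± 2.43 CPM per kb, where each overlapped its neighbour within 1 SD. In IMQ+H2O, B2m had 1677 ± 307 CPM per kb and Nlrc5 5.11 ± 1.35. In both imiquimod groups Psmb10 stood above Tap2 and Tap2 above Tap1, and the remaining order was that of the control.

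IMQ+H2O was first set against VAS+H2O to ask what imiquimod changed in the dermis. The surface chains were higher in every IMQ+H2O library than in any control, with fitted folds of 1.53 to 1.77, and the groups overlapped for the other 7 genes. Of the 10, only B2m and H2-D1 had an unadjusted p under 0.05 in edgeR. None of the 10 genes was called at an adjusted p of 0.05 or lower with a log2 fold change of 1 or more in size, limits that 0.994% of the 22430 tested genes passed. At an unadjusted p under 0.05, 2 of the 10 were higher and 0 lower, where 10.1% of all tested genes were higher and 10.8% lower. Groups that did not overlap were seen for 3 of the 10, against 31.5% of all tested genes. Such separation was thus no more frequent among the 10 than among all tested genes. DESeq2 also called 0 of the 10, with 3 at an unadjusted p under 0.05. The median log2 fold change of the 10 genes was 0.18, beside −0.02 for all tested genes, and it was −0.06 without VAS+H2O replicate 2.

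B2m, the light chain that every classical class I molecule needs, had 913, 629 and 901 CPM in VAS+H2O, 1186, 1713 and 1426 CPM in IMQ+H2O, and 1423, 886 and 1324 CPM in IMQ+XYF. All 3 IMQ+H2O libraries lay above all controls, and IMQ+XYF replicate 2 lay among the controls. Its log2 fold change by imiquimod was 0.82 ± 0.23 (SE) with a 95% interval from 0.31 to 1.34 (edgeR p 0.00589, adjusted p 0.102). Over the 15 alternatives its log2 fold change ran from 0.66 to 0.95 and its adjusted p (edgeR or DESeq2) from 0.0153, under DESeq2, to 0.252.

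H2-D1, a classical heavy chain of the C57BL/6 haplotype, had 569, 514 and 607 CPM in VAS+H2O, 727, 1089 and 815 CPM in IMQ+H2O, and 894, 526 and 816 CPM in IMQ+XYF. Its log2 fold change by imiquimod was 0.64 ± 0.22 (SE, edgeR p 0.0173, adjusted p 0.154). H2-K1, the other classical heavy chain, had 248, 220 and 286 CPM in VAS+H2O, 309, 496 and 351 CPM in IMQ+H2O, and 417, 202 and 372 CPM in IMQ+XYF. Its log2 fold change was 0.62 ± 0.28 (SE) and an interval from −0.01 to 1.24 (edgeR p 0.0528, adjusted p 0.243). IMQ+H2O replicate 2 was the highest of all 9 libraries for each of the 3 surface chains, and without it 1 of the 10 genes had an unadjusted p under 0.05. The same count was 1 without VAS+H2O replicate 2, the lowest control.

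The heavy chains kept step with each other. The log2 ratio of H2-K1 to H2-D1, in counts per base, lay between −1.01 and −0.71 in all 9 libraries, with an SD of 0.09, while H2-K1 itself spanned a 2.46-fold range. Reads shared between these similar genes could add to such a likeness, and their part was not tested.

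Markers of other cells moved beside the surface chains. Between IMQ+H2O and VAS+H2O, 31.5% of all tested genes did not overlap. At an unadjusted p under 0.05, 10.1% of all tested genes were higher by imiquimod and 10.8% lower. Endothelial markers (Pecam1, Cdh5, Kdr, Tek, Emcn) summed to 433 to 695 CPM in VAS+H2O, 932 to 1005 in IMQ+H2O and 357 to 896 in IMQ+XYF, and all 5 had higher levels in every IMQ+H2O library than in any control. Neutrophil markers summed to 6.65 to 22.1, 204 to 643 and 169 to 471 CPM in the same order, all 5 tested ones were higher by imiquimod at an unadjusted p under 0.05, and Ly6g had 0 counts in 4 libraries. The highest counts of this list in any library were 15438 for S100a9 and 11662 for S100a8, against 3214 for Csf3r. The leukocyte markers Ptprc, Coro1a, Laptm5 and Cd52 summed to 118 to 166, 135 to 257 and 126 to 181 CPM, and the monocyte-macrophage markers to 505 to 857, 696 to 965 and 664 to 699 CPM. CD8 T and NK markers summed to 9.49 to 13.4, 7.78 to 18.95 and 9.80 to 18.5 CPM, with Cd8a at 0 counts in 2 libraries. The other tissue markers differed too. Cartilage markers summed to 797 to 1438 CPM in VAS+H2O and 231 to 364 in IMQ+H2O, with all 4 tested markers lower at an unadjusted p under 0.05 and 1 called by edgeR. Fibroblast sums were 14594 to 25353 and 10367 to 17281 CPM, with 2 of 6 lower at that limit, keratinocyte sums 2980 to 5741 and 1974 to 2946 CPM with 0 of 6, and skeletal muscle sums 240 to 1010 and 500 to 987 CPM with 0 of 5. In bulk RNA, more cells of a type and more RNA per cell cannot be told apart, and the part of these cells in the surface chain levels was not tested.

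The groups overlapped for the transporter subunits and for tapasin, and whether their changes differed from those of the surface chains was not tested. Tap1, a subunit of the transporter, had 47.9, 31.6 and 83.0 CPM in VAS+H2O, 32.9, 54.1 and 42.9 CPM in IMQ+H2O, and 41.4, 29.1 and 45.2 CPM in IMQ+XYF. The controls alone spanned a 2.62-fold range, wider than either imiquimod group. The log2 fold change by imiquimod was −0.32 ± 0.34 (SE, edgeR adjusted p 0.619), and it was 0.12 without VAS+H2O replicate 3. Tap2, the other transporter subunit, had 60.5, 39.5 and 82.3 CPM in VAS+H2O, 55.3, 63.4 and 53.4 CPM in IMQ+H2O, and 49.7, 54.8 and 62.4 CPM in IMQ+XYF, with a log2 fold change by imiquimod of −0.08 ± 0.23 (SE). Tapbp, which bridges TAP and the empty heavy chain, had 274, 178 and 264 CPM in VAS+H2O, 241, 268 and 247 CPM in IMQ+H2O, and 222, 261 and 272 CPM in IMQ+XYF. Its log2 fold change by imiquimod was 0.08 ± 0.17 (SE), with an interval from −0.30 to 0.45.

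Set against B2m in the same library, Tap1 was lower in every imiquimod-treated library than in any control. The log2 ratio of Tap1 to B2m, in counts per base, was −6.03, −6.09 and −5.22 in VAS+H2O, −6.95, −6.76 and −6.84 in IMQ+H2O, and −6.88, −6.71 and −6.65 in IMQ+XYF. On the linear scale this was 0.0189 ± 0.00686 in the controls, 0.00868 ± 0.000572 in IMQ+H2O and 0.00932 ± 0.000762 in IMQ+XYF (SD, n = 3). By their raw counts, Tap2, Psmb9, Psmb10 and Nlrc5 set against B2m separated in the same way, while Tapbp and Psmb8 did not. The separation was therefore not particular to Tap1. The pair of Tap1 and B2m was chosen after its values were seen, so no test is given. A ratio within a library does not depend on scaling, and it shows unequal change without saying which gene moved.

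**Figure D2:**
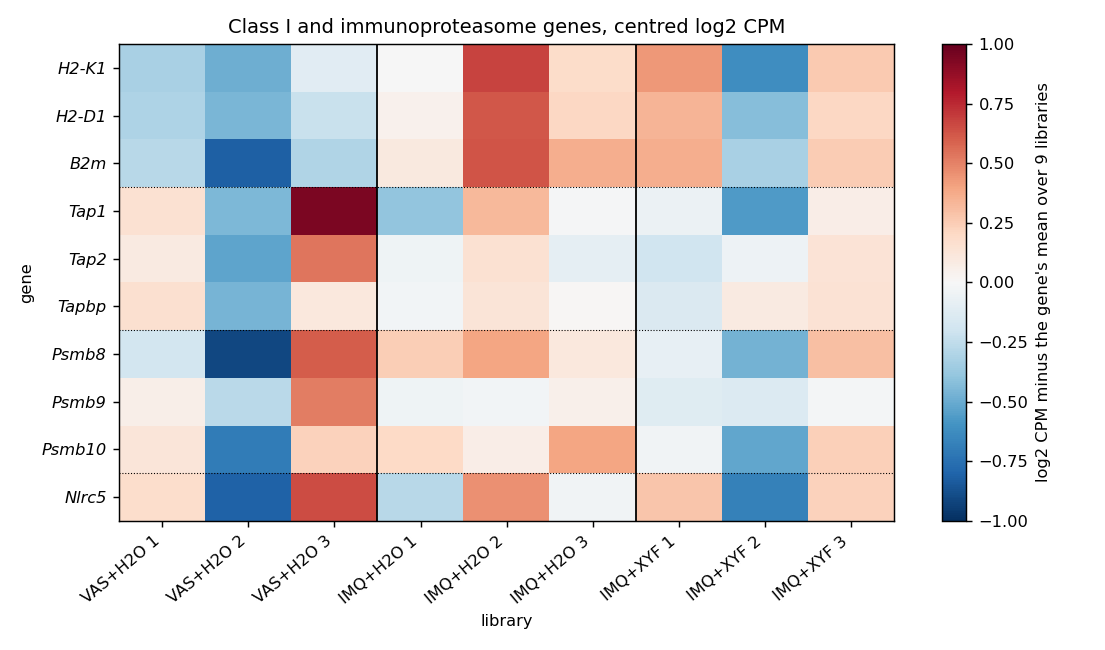
Log2 CPM of the 10 genes, each centred on its mean over 9 libraries, with genes as rows by role (surface chains, peptide loading, inducible subunits, Nlrc5) and libraries as columns; red is above and blue below the mean. VAS+H2O replicate 2 is low for all 10 genes and IMQ+XYF replicate 2 for 8 of them within their groups, while VAS+H2O replicate 3 is high for Tap1, Tap2, Psmb8, Psmb9 and Nlrc5 but not for the surface chains.

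Nlrc5, the transactivator that binds the promoters of class I genes through their SXY module, had 41.4, 20.8 and 57.6 CPM in VAS+H2O, 30.2, 50.1 and 35.8 CPM in IMQ+H2O, and 44.4, 22.8 and 42.9 CPM in IMQ+XYF. Its log2 fold change by imiquimod was −0.05 ± 0.38 (SE) and an interval from −0.91 to 0.82 (edgeR adjusted p 0.958). An Nlrc5 change of the size fitted for H2-D1 in either direction was not detectable at this spread. Within each group, the library with the lowest Nlrc5 was also the lowest for H2-K1 and H2-D1, which were VAS+H2O replicate 2, IMQ+H2O replicate 1 and IMQ+XYF replicate 2.

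Within groups the 10 genes moved largely as a block. VAS+H2O replicate 2 was the lowest of its group for 10 of 10 genes and replicate 3 the highest for 8. In IMQ+H2O, replicate 1 was lowest for 7 and replicate 2 highest for 8. In IMQ+XYF, replicate 2 was lowest for 8 and replicate 3 highest for 6. VAS+H2O replicate 2 also had the highest leukocyte (166 CPM), CD8 T and NK (13.4), monocyte-macrophage (857), neutrophil (22.1), dendritic (40.1), keratinocyte (5741) and skeletal muscle (1010) marker sums of the controls, and the lowest cartilage sum (797). IMQ+XYF replicate 2 had the lowest endothelial sum of all 9 libraries (357 CPM) and the highest cartilage (1410 CPM) and skeletal muscle (338 CPM) sums of its group. It was the lowest of its group for the leukocyte, CD8 T and NK, monocyte-macrophage, neutrophil, dendritic, fibroblast and keratinocyte sums. The part of these cells in the low values was not tested. With both of these libraries left out, a choice made after seeing the data, 0 of the 10 genes were called, and the log2 fold changes by imiquimod were 0.68 for B2m, 0.59 for H2-D1 and 0.55 for H2-K1.

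The inducible subunits of the proteasome were next set against the constitutive subunits whose places they take. Psmb8, the chymotrypsin-like inducible subunit, had 43.0, 26.04 and 74.5 CPM in VAS+H2O, 58.1, 64.4 and 52.7 CPM in IMQ+H2O, and 46.4, 35.3 and 60.2 CPM in IMQ+XYF. Psmb9 had 13.2, 10.6 and 18.1 CPM in VAS+H2O, 12.4, 12.5 and 13.2 CPM in IMQ+H2O, and 11.7, 11.6 and 12.5 CPM in IMQ+XYF. Psmb10 had 25.0, 14.1 and 27.0 CPM in VAS+H2O, 26.3, 24.02 and 30.2 CPM in IMQ+H2O, and 22.4, 16.01 and 27.1 CPM in IMQ+XYF. The control libraries spanned the imiquimod libraries for Psmb8 and Psmb9, and the groups overlapped for Psmb10. By imiquimod their log2 fold changes were 0.29, −0.14 and 0.28, with SEs of 0.34, 0.18 and 0.26 and edgeR adjusted p-values of 0.667, 0.695 and 0.575.

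Per base of the transcript models used, constitutive subunits had more counts than inducible ones at all 3 catalytic sites in every library. For Psmb8 this rests on the annotated lengths. Its raw counts were above those of Psmb5 in VAS+H2O replicate 3 (5560 against 3593) and in IMQ+H2O replicates 1 (1688 against 1530) and 2 (2653 against 2297). They were below them in all other libraries. In counts per base, Psmb8 reached 0.545 ± 0.293 of Psmb5 in VAS+H2O, 0.590 ± 0.0603 in IMQ+H2O and 0.424 ± 0.0911 in IMQ+XYF (SD, n = 3). Psmb10 reached 0.256 ± 0.102 of Psmb7 in VAS+H2O, 0.267 ± 0.0224 in IMQ+H2O and 0.211 ± 0.0415 in IMQ+XYF. Psmb9 reached only 0.0773 ± 0.0206 of Psmb6 in VAS+H2O, 0.0612 ± 0.000969 in IMQ+H2O and 0.0531 ± 0.00284 in IMQ+XYF. The Psmb9 to Psmb6 log2 ratio was the tightest of the 3 within the imiquimod groups, and it did not overlap between IMQ+XYF (−4.32, −4.16 and −4.23) and IMQ+H2O (−4.02, −4.02 and −4.06), nor between IMQ+XYF and VAS+H2O (−3.73, −4.11 and −3.34). Psmb9 had 359 to 938 counts in the imiquimod-treated libraries, where counting error alone could give a spread as wide, so the tightness is not read further.

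Each ratio was compared in each pair of groups, 9 comparisons in all, by a two-sided exact permutation test over libraries, which cannot go below p = 0.1 with 3 against 3. Psmb9 to Psmb6 was lower in IMQ+XYF than in IMQ+H2O by a log2 difference of −0.21 and than in VAS+H2O by −0.51, both at that smallest p (exact p 0.1, 0.45 after Benjamini-Hochberg adjustment over the 9). By imiquimod alone the difference was −0.30 (exact p 0.4, adjusted 0.72). For Psmb8 to Psmb5 the differences were 0.26 by imiquimod (exact p 0.7, adjusted 0.9), −0.49 by XYF (exact p 0.2, adjusted 0.45) and −0.23 for IMQ+XYF against VAS+H2O (exact p 0.7, adjusted 0.9). For Psmb10 to Psmb7 they were 0.15 (exact p 1, adjusted 1), −0.36 (exact p 0.2, adjusted 0.45) and −0.20 (exact p 0.8, adjusted 0.9). The 2 positive differences by imiquimod turned to −0.16 and −0.24 without VAS+H2O replicate 2. Any 2 of the 3 comparisons share a group of libraries.

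**Figure D3:**
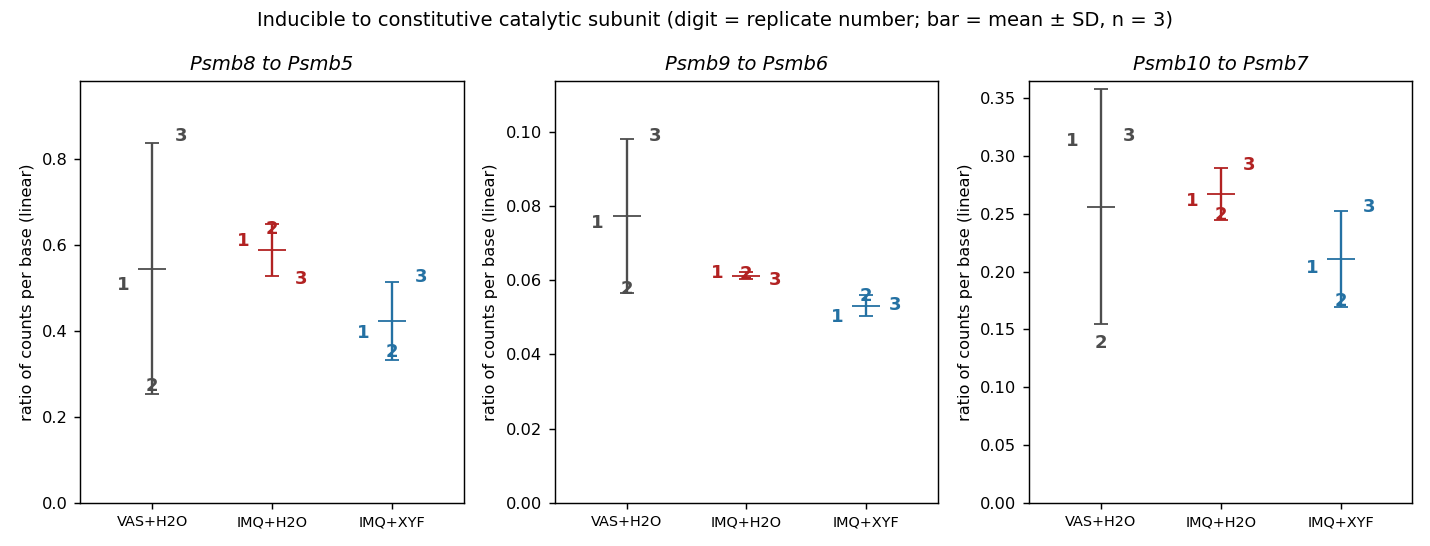
Ratio of inducible to constitutive subunit transcripts, in counts per base on linear axes from 0, by library; digits are replicate numbers and bars give the mean ± SD (n = 3). All ratios lie below 1, and Psmb9 to Psmb6 stays below 0.1 in every library.

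The partners in these ratios belonged to a list of 19 genes of the constitutive proteasome core and its assembly factors, all tested. By imiquimod 11 of the 19 were higher at an unadjusted p under 0.05 and 0 were lower, where 10.1% and 10.8% of all tested genes were. The median log2 fold change was 0.28, beside −0.02 for all tested genes, and 0 were called by edgeR or DESeq2. Psmb6 had 104, 108 and 108 CPM in VAS+H2O and 118, 119 and 129 CPM in IMQ+H2O, a log2 fold change of 0.20 ± 0.09 (SE, edgeR p 0.0518, adjusted p 0.242). Psmb5 had 46.8, 52.7 and 48.1 CPM against 52.7, 55.7 and 55.8 CPM, and its log2 fold change was 0.15 ± 0.09 (SE, edgeR adjusted p 0.374). Psmb7 had 70.7, 90.2 and 75.3 CPM against 89.2, 85.4 and 91.3 CPM, with a log2 fold change of 0.17 ± 0.12 (SE, edgeR adjusted p 0.427). In IMQ+XYF against VAS+H2O, 13 of the 19 were higher and 0 lower, where 9.58% and 8.76% of all tested genes were, with a median of 0.33 and again 0 called by either tool. The count by imiquimod ran from 7, without VAS+H2O replicate 1, to 15 without both VAS+H2O replicate 2 and IMQ+XYF replicate 2. The IFN-inducible PA28 activator genes Psme1 and Psme2 had log2 fold changes by imiquimod of 0.20 and 0.17, with SEs of 0.11 and 0.11 (edgeR adjusted p 0.307 and 0.423).

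Peptide loading and trimming genes held the only gene of the 7 lists of related genes that edgeR called. Of 12 such genes, all tested, 5 were higher and 1 lower by imiquimod at an unadjusted p under 0.05, and 8 were higher and 1 lower in IMQ+XYF against VAS+H2O. Of all tested genes, 10.1% were higher and 10.8% lower by imiquimod, and 9.58% and 8.76% in IMQ+XYF against VAS+H2O. The 5 genes higher by imiquimod became 3 without VAS+H2O replicate 1, IMQ+H2O replicate 2 or IMQ+H2O replicate 3. Calr encodes calreticulin, an endoplasmic reticulum chaperone that holds the heavy chain during loading and many other glycoproteins during folding. It had 412, 410 and 438 CPM in VAS+H2O, 624, 769 and 850 CPM in IMQ+H2O, and 921, 685 and 932 CPM in IMQ+XYF. Every imiquimod-treated library lay above every control. Groups did not overlap for 31.5% of all tested genes by imiquimod and for 22.1% in IMQ+XYF against VAS+H2O. In IMQ+XYF against VAS+H2O it rose by 1.01 ± 0.16 on the log2 scale (SE, edgeR adjusted p 0.0274), where 1.20% of all tested genes were called. This call held in 8 of 16 fits, and the log2 fold change over all 16 lay between 0.94 and 1.19. The adjusted p (edgeR) was 0.0683, 0.109 and 0.107 without VAS+H2O replicates 1, 2 and 3, 0.0551 without IMQ+H2O replicate 2, and 0.0838 and 0.0901 without IMQ+XYF replicates 1 and 3. By imiquimod alone its log2 fold change was 0.83 ± 0.16 (SE, edgeR adjusted p 0.0443), under the fold limit of a call.

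Pdia3, the disulphide isomerase bound to tapasin in the loading complex, had 337, 328 and 341 CPM in VAS+H2O, 392, 457 and 487 CPM in IMQ+H2O, and 524, 414 and 496 CPM in IMQ+XYF. Its log2 fold change by imiquimod was 0.41 ± 0.12 (SE, edgeR adjusted p 0.121) and 0.51 ± 0.12 (SE) in IMQ+XYF against VAS+H2O (edgeR adjusted p 0.0714). Erap1, which trims peptides in the endoplasmic reticulum, had a log2 fold change by imiquimod of 0.24 ± 0.16 (SE, edgeR adjusted p 0.426). The lower gene in both comparisons, named after its values were seen, was Tapbpl, a tapasin relative that edits peptides outside the loading complex, with log2 fold changes of −0.54 and −0.46 and SEs of 0.16 and 0.16 (edgeR adjusted p 0.119 and 0.164).

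**Figure D4:**
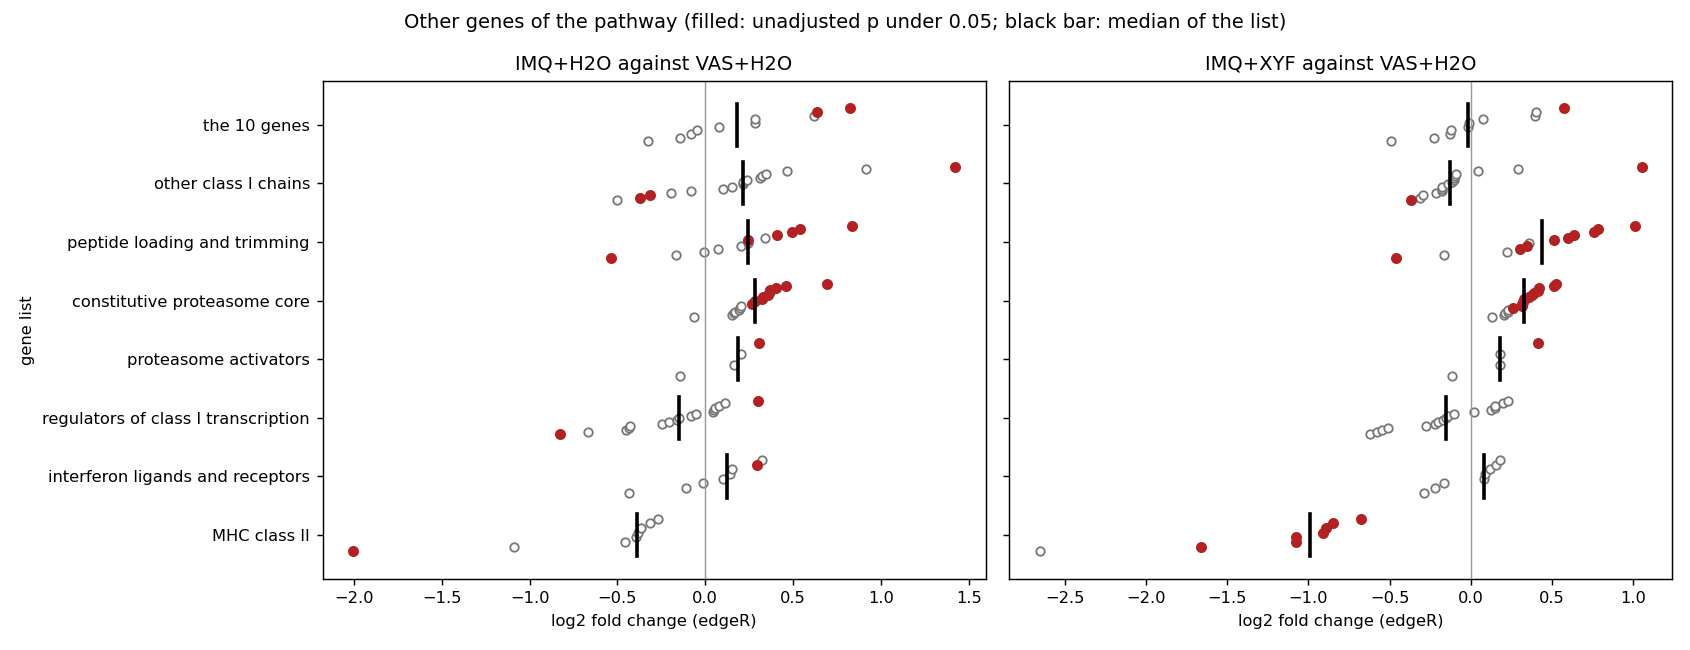
Log2 fold changes of the 10 genes and of 7 lists of related genes, for IMQ+H2O and for IMQ+XYF against VAS+H2O; each circle is a gene, filled where its unadjusted p was under 0.05, and the black bar is the median of the list. Proteasome core genes lie mostly to the right of 0 and MHC class II genes to the left, and both panels use the same VAS+H2O libraries.

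Among the other class I chains, 16 of 20 listed genes were tested. H2-Q1 and H2-Q2 had 0 counts in all 9 libraries, H2-T3 had at most 5 counts, and H2-T9 had no row. By imiquimod 1 of the 16 was higher and 2 were lower at an unadjusted p under 0.05, where 10.1% and 10.8% of all tested genes were. The median log2 fold change was 0.22, beside −0.02 for all tested genes. The higher gene, named after its values were seen, was H2-Q10, a class I chain best known from liver, with 1.48, 2.47 and 2.63 CPM in VAS+H2O, 4.41, 4.97 and 8.29 CPM in IMQ+H2O, and 4.89, 1.91 and 6.90 CPM in IMQ+XYF. Every IMQ+H2O library lay above every control, and 31.5% of all tested genes did not overlap in this comparison. The log2 fold change of H2-Q10 was 1.42 ± 0.47 (SE, edgeR adjusted p 0.142), which DESeq2 called with an adjusted p of 0.0331. The count of higher genes was 0 without VAS+H2O replicate 1 or IMQ+H2O replicate 3, and 2 without VAS+H2O replicate 3, IMQ+H2O replicate 1 or IMQ+XYF replicate 2, and that of lower genes was 1 without VAS+H2O replicate 3, IMQ+H2O replicate 1 or IMQ+H2O replicate 3. H2-T23, which encodes Qa-1 and presents leader peptides to NK receptors, had 166, 70.0 and 160 CPM in VAS+H2O, 158, 186 and 147 CPM in IMQ+H2O, and 133, 96.8 and 141 CPM in IMQ+XYF. H2-Q4 had 103, 85.0 and 146 CPM in VAS+H2O, 123, 175 and 120 CPM in IMQ+H2O, and 118, 68.1 and 123 CPM in IMQ+XYF. Their log2 fold changes by imiquimod were 0.31 and 0.32, with SEs of 0.30 and 0.28 (edgeR adjusted p 0.587 and 0.535). H2-M3, which presents formylated peptides, had 5.82, 4.95 and 6.95 CPM in VAS+H2O, 6.85, 8.59 and 7.08 CPM in IMQ+H2O, and 5.49, 4.66 and 5.94 CPM in IMQ+XYF. Its groups did not overlap between IMQ+XYF and IMQ+H2O, with a log2 fold change of −0.49 ± 0.18 (SE, edgeR p 0.0281, adjusted p 0.387). Between these groups 3 of the 16 did not overlap, H2-T22 and H2-T23 being the others, against 18.0% of all tested genes.

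Of 17 regulators of class I transcription, 1 was higher and 1 lower by imiquimod at an unadjusted p under 0.05 in edgeR. These counts stood beside 10.1% and 10.8% of all tested genes. By either tool 0 of the 17 were called, and the median log2 fold change was −0.15, beside −0.02 for all tested genes. The lower gene, named after its values were seen, was Creb1, a factor that binds cyclic AMP response elements, with 51.0, 59.1 and 61.8 CPM in VAS+H2O, 40.3, 21.2 and 35.5 CPM in IMQ+H2O, and 58.3, 57.1 and 58.9 CPM in IMQ+XYF. IMQ+H2O lay below both other groups without overlap, with log2 fold changes of −0.83 ± 0.21 by imiquimod and 0.85 ± 0.21 by XYF (SE, edgeR adjusted p 0.0838 and 0.36). Both comparisons use the same IMQ+H2O libraries, so these values are not independent. Groups did not overlap for 31.5% of all tested genes by imiquimod and for 18.0% by XYF. The count of lower genes was 4 without VAS+H2O replicate 2, also when IMQ+XYF replicate 2 was left out with it, 3 without VAS+H2O replicate 1 and 2 without IMQ+XYF replicate 1. Irf1, which binds interferon-response elements, had 121, 232 and 208 CPM in VAS+H2O, 136, 95.5 and 123 CPM in IMQ+H2O, and 75.0, 136 and 154 CPM in IMQ+XYF, with a log2 fold change by imiquimod of −0.67 ± 0.31 (SE, edgeR p 0.0603, adjusted p 0.259). Ciita, the relative of Nlrc5 that drives class II genes, had 1.20 to 5.09 CPM over the 9 libraries and a log2 fold change by imiquimod of −0.43 ± 0.45 (SE, edgeR adjusted p 0.615). Ifng, the strongest inducer of the pathway, was too low to test, with 5 counts in VAS+H2O replicate 3, 3 counts in IMQ+H2O replicate 2 and 0 in the other 7 libraries. Of the interferon ligands and receptors, 8 of 13 were tested and 1 was higher by imiquimod at an unadjusted p under 0.05. Of all tested genes, 10.1% were higher at that limit. The count for this list ran from 0 to 2 over the alternatives and was 0 without VAS+H2O replicate 1 or any 1 of the IMQ+H2O libraries.

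The class II presentation genes, which serve CD4 T cells, had fitted changes below 0 by imiquimod for all 8 of the 8 tested. Of these, 1 was lower at an unadjusted p under 0.05, where 10.8% of all tested genes were. This count became 8 without IMQ+H2O replicate 2, the library with the highest surface chain levels. In IMQ+XYF against VAS+H2O, 7 of the 8 were lower at that limit, against 8.76% of all tested genes, the groups did not overlap for any of the 8, against 22.1% of all tested genes, the median log2 fold change was −0.99, and 0 were called by edgeR and 3 by DESeq2. Without VAS+H2O replicate 2 and IMQ+XYF replicate 2, 2 of the 8 were lower at that limit. The dendritic cell markers summed to 24.3 to 40.1 CPM in VAS+H2O, 27.3 to 44.8 in IMQ+H2O and 22.5 to 32.2 in IMQ+XYF, and their part was not tested.

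IMQ+XYF was then set against IMQ+H2O to ask what XYF changed in imiquimod-treated dermis. The fitted log2 fold changes of all 10 genes lay below 0, from −0.30 for Psmb8 and Psmb10 to −0.002 for Tapbp, and none differed beyond the spread between libraries. By edgeR and by DESeq2 0 of the 10 were called, where edgeR called 0.00892% of all tested genes. At an unadjusted p under 0.05, 0 were higher and 0 lower, beside 6.35% and 5.39% of all tested genes, and DESeq2's Wald test also gave 0. Groups that did not overlap were seen for 0 of the 10, against 18.0% of all tested genes. Marker lists stood apart beside these values, and their part was not tested. From IMQ+H2O to IMQ+XYF, keratinocyte sums went from 1974 to 2946 CPM to 3598 to 13880 CPM, with 5 of 6 markers higher at an unadjusted p under 0.05. Cartilage sums went from 231 to 364 CPM to 447 to 1410 CPM, with all 4 tested markers higher at that limit. Skeletal muscle sums went from 500 to 987 CPM to 61.3 to 338 CPM with 4 of 5 lower, and endothelial sums from 932 to 1005 CPM to 357 to 896 CPM with 2 of 5 lower. The median log2 fold change of the 10 genes by XYF was −0.19, beside 0.01 for all tested genes.

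B2m differed by −0.25 ± 0.23 (SE) and an interval from −0.77 to 0.26 (edgeR adjusted p 0.673), H2-D1 by −0.23 with an interval from −0.73 to 0.26, and H2-K1 by −0.22 with an interval from −0.85 to 0.40 on the log2 scale. Tapbp had the narrowest interval of the 10, from −0.38 to 0.37, and Nlrc5 the widest, from −0.94 to 0.79. For H2-D1 and H2-K1 the intervals hold a difference as large as that fitted for imiquimod, in the opposite direction, and also hold 0. The signs of some of these values changed with the libraries used. Without IMQ+XYF replicate 2 alone, H2-K1 at 0.06, Tap1 at 0.03 and Nlrc5 at 0.20 lay above 0, and the median was −0.01. Without IMQ+H2O replicate 2 alone, H2-K1 at 0.005, Tap1 at 0.03, Tap2 at 0.04, Tapbp at 0.05 and Nlrc5 at 0.16 did, and the median was −0.02. Without IMQ+XYF replicate 2 and VAS+H2O replicate 2, 4 of the 10 lay above 0, namely H2-K1 at 0.06, Tap1 at 0.03, Tapbp at 0.001 and Nlrc5 at 0.20, and the median was −0.01.

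**Figure D5:**
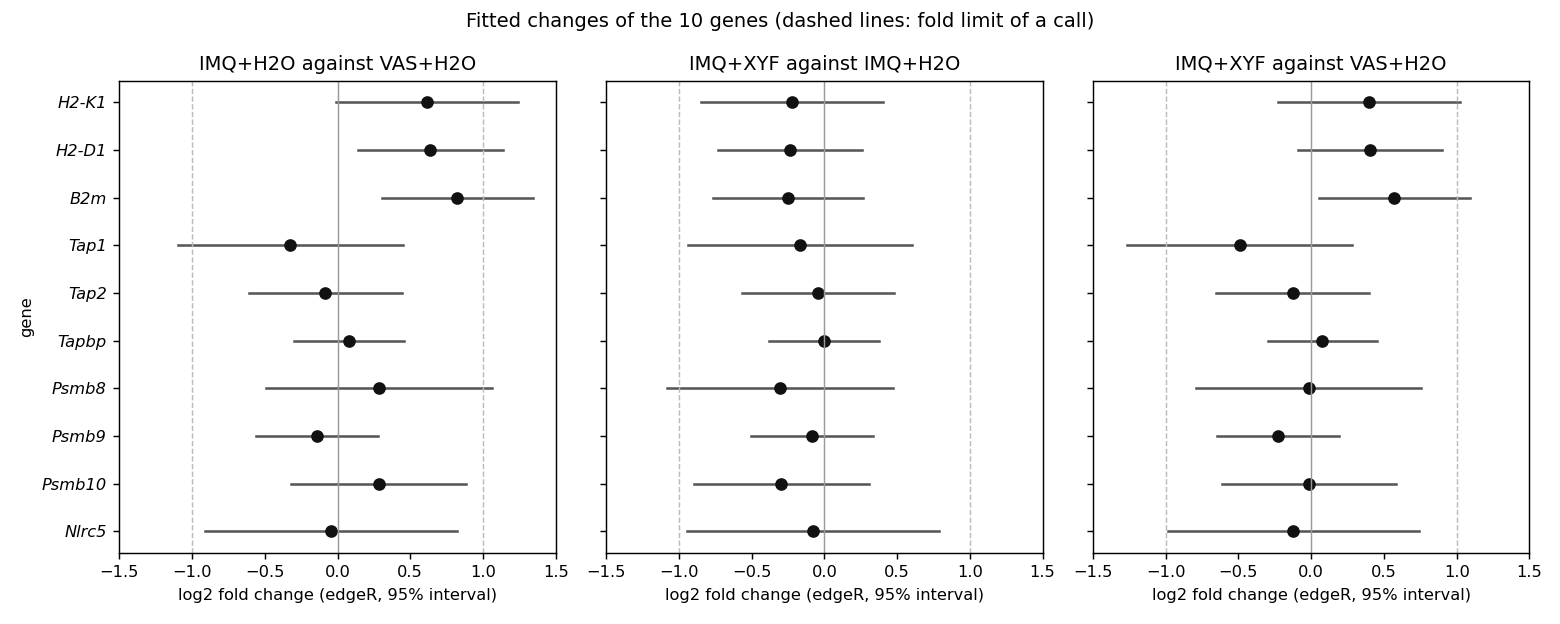
Fitted log2 fold change of each of the 10 genes (points) with its 95% interval (lines) in the 3 comparisons; dashed lines mark a log2 fold change of 1 in either direction. Only B2m and H2-D1 by imiquimod, and B2m in IMQ+XYF against VAS+H2O, have intervals that leave out 0.

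IMQ+XYF against VAS+H2O shares libraries with both other comparisons and closes the set. B2m was higher by 0.57 ± 0.23 on the log2 scale (SE, edgeR p 0.0337, adjusted p 0.226). H2-D1 was at 0.40 ± 0.22 (SE) and H2-K1 at 0.39 ± 0.28 (SE, edgeR adjusted p 0.37 and 0.505), while Tap1 was at −0.49 ± 0.34 (SE, edgeR adjusted p 0.5). Tap2, Tapbp, Psmb8, Psmb9, Psmb10 and Nlrc5 lay between −0.23 and 0.08. By edgeR and by DESeq2 0 of the 10 were called, and in edgeR 1 of the 10 was higher and 0 lower at an unadjusted p under 0.05, where 9.58% of all tested genes were higher and 8.76% lower. Groups that did not overlap were seen for 0 of the 10, against 22.1% of all tested genes, and the median of the 10 was −0.02, the same as that of all tested genes. The count at an unadjusted p under 0.05 was 3 without IMQ+XYF replicate 2, 2 without VAS+H2O replicate 2, and 0 without IMQ+XYF replicate 1 or replicate 3.

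Finally, the 12818 other tested genes with a mean of at least 5 CPM were ranked by the Pearson correlation of their log2 CPM with the mean centred log2 CPM of the 10 genes over the 9 libraries. The 10 most alike were Isg20 (r 0.94), Oas1a (0.93), H2-T22 (0.92), H2-T23 (0.91), Sox17 (0.89), H2-Q4 (0.89), Itpk1 (0.89), Oas3 (0.89), Zfp235 (0.89) and Parp10 (0.88). Isg20, an exonuclease, and Oas1a and Oas3, of the oligoadenylate synthetase family, are classed as interferon-stimulated genes, H2-T22, H2-T23 and H2-Q4 are class I chains, and Sox17 encodes a transcription factor of endothelial cells among others. The points share their libraries, and the best of so many genes is bound to correlate highly with any profile over 9 libraries, so the list is a description. Of the 10 genes, Psmb8 (r 0.93) and Nlrc5 (0.91) were most like the mean of the other 9, and Psmb9 (0.60) and Tapbp (0.63) the least.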

How the data were processed

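RNA of dermal ear sheets was sequenced in 9 libraries. The labels call these TruSeq libraries strand-specific, while the methods name a TruSeq kit without saying so, and strand was therefore treated as unknown. The authors aligned the reads to GRCm38 with STAR (2.5), and the submitters' processing notes also name FastQC, Cuffnorm and DESeq (1.22.1). The deposited table holds raw counts per gene, made by the authors with a counting tool, strand setting and treatment of multiply aligned reads that were not given in the sources used here. The table had no column outside these 9 libraries. Groups came from the labels. The 10 genes, the lists of related genes and the markers were chosen with earlier results of these data known.

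Counts were filtered with filterByExpr (22430 genes), scaled by TMM and fitted with the quasi-likelihood test of edgeR (4.0.16, limma 3.58.1, R 4.3.3) in 1 model of 3 groups, without a replicate block. Genes were called at an adjusted p of at most 0.05 and a log2 fold change of at least 1 in size. The p-values were adjusted by Benjamini-Hochberg over all tested genes. The fit was tested on simulated data. Named genes are the 10, any related gene called, 15 related genes fixed by symbol, of which 1 is not reported here, and the 10 most alike by Pearson correlation. Alternatives were DESeq2 (1.42.0), RLE scaling, no filter, a replicate block, only the 6 libraries compared, each library left out, and, chosen after seeing the data, VAS+H2O replicate 2 and IMQ+XYF replicate 2 left out together. Transcript lengths, coordinates and overlaps came from the GENCODE annotation of GRCm38. Log2 CPM for correlations used a prior count of 2. No technical batch was given in the labels.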

Additional observations from a re-analysis of the deposited data

How the results depend on the processing

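With 3 libraries a group, only large changes of steady genes could be called. None of the 10 genes was called in any of the 3 comparisons under any of the 15 alternatives. The median of their log2 fold changes ran from −0.0557 to 0.3828 by imiquimod, from −0.3079 to −0.0055 by XYF and from −0.2820 to 0.2003 in IMQ+XYF against VAS+H2O. Of 450 refitted log2 fold changes 52 changed sign, none of them of a called gene, and 4 of 63 refitted ratio differences did; the causes were not tested. The number of all genes called moved most. It was 223 by imiquimod, 2 by XYF and 270 for IMQ+XYF against VAS+H2O, but 940, 219 and 705 with DESeq2, and 496, 1 and 33 with only the 6 libraries compared. With VAS+H2O replicate 2 and IMQ+XYF replicate 2 left out it was 252, 5 and 414. With single libraries left out it ran from 25 (without IMQ+H2O replicate 3) to 455 (without IMQ+XYF replicate 2) by imiquimod, from 0 to 4 by XYF, and from 12 (without VAS+H2O replicate 2) to 592 (without IMQ+XYF replicate 2) in the third comparison.

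Whether replicate numbers pair the libraries was not settled, since residuals of 3 libraries a group cannot exclude a pairing. Same-numbered libraries had residual correlations of 0.12, 0.07 and −0.02 for imiquimod, −0.11, −0.18 and 0.10 for XYF and −0.18, −0.18 and 0.04 for IMQ+XYF against VAS+H2O, and 4, 2 and 0 of 6 libraries were closest to their own number. With a replicate block, 86, 0 and 54 genes were called, 0 of the 10 had an unadjusted p under 0.05 in IMQ+XYF against VAS+H2O, the imiquimod log2 fold change of Nlrc5 became 0.0844, those of Psmb8 and Psmb10 in IMQ+XYF against VAS+H2O became 0.0382 and 0.0024, and the adjusted p of Calr (edgeR) there was 0.0628.

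The number of the 10 genes at an unadjusted p under 0.05 ran from 1 to 3 by imiquimod and from 0 to 3 in IMQ+XYF against VAS+H2O with single libraries left out, and was 3 in the latter with VAS+H2O replicate 2 and IMQ+XYF replicate 2 left out. In that same refit the log2 fold change of Tapbp was −0.0796 by imiquimod and −0.0789 in IMQ+XYF against VAS+H2O, and those by XYF were 0.0648 for H2-K1, 0.0287 for Tap1, 0.0007 for Tapbp and 0.2036 for Nlrc5. Tapbp by XYF was 0.0058 with DESeq2 and 0.0222 with no filter. In IMQ+XYF against VAS+H2O, Psmb8 and Psmb10 were 0.0157 and 0.0189 with DESeq2, 0.0115 and 0.0138 with RLE, and 0.0031 and 0.0036 with only the 6 libraries, and Psmb10 was 0.0012 with no filter.

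With single libraries left out, log2 fold changes by imiquimod ran from −0.6002 to 0.1217 for Tap1, −0.3201 to 0.1964 for Tap2, −0.0977 to 0.1860 for Tapbp, −0.0138 to 0.7562 for Psmb8, −0.3109 to 0.0891 for Psmb9 and −0.3585 to 0.3128 for Nlrc5, with the lowest values without VAS+H2O replicate 2 and the highest, except for Tapbp, without VAS+H2O replicate 3. By XYF they ran from −0.4232 to 0.0625 for H2-K1, −0.3297 to 0.0284 for Tap1, −0.1325 to 0.0367 for Tap2, −0.0584 to 0.0822 for Tapbp and −0.2329 to 0.2013 for Nlrc5. In IMQ+XYF against VAS+H2O they ran from −0.3605 to 0.1545 for Tap2, −0.0957 to 0.1883 for Tapbp, −0.3138 to 0.4545 for Psmb8, −0.3932 to 0.0053 for Psmb9, −0.2502 to 0.2141 for Psmb10 and −0.4292 to 0.2404 for Nlrc5. The log2 ratio differences of Psmb8 to Psmb5 ran from −0.1645 to 0.6588 by imiquimod and from −0.6580 to 0.1654 in IMQ+XYF against VAS+H2O, and those of Psmb10 to Psmb7 from −0.2407 to 0.3569 and from −0.5964 to 0.0011.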
